A study of Homo sapiens with 12 samples.

Results

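The NDRG family and 1 gene often listed with it were followed through the transcriptome of Molidustat-treated Huh7 cells. They are the N-myc downstream regulated genes NDRG1, NDRG2, NDRG3 and NDRG4, and ANKRD37, which encodes a small ankyrin repeat protein. They were chosen by name, as the 4 members of the NDRG family and a companion gene from the same hypoxia lists, so 5 of the 60666 genes listed in each count file were concerned. Huh7 is a cell line from a human hepatocellular carcinoma. Cells received 25 µM Molidustat, an inhibitor of the prolyl hydroxylases that mark hypoxia-inducible factor (HIF) for destruction, or its solvent DMSO alone, for 24 h or 48 h. Each of the 4 groups held 3 libraries, 12 in all, and no other agent or genotype differed between them. The methods speak of biological replicates and the sample records of triplicate extractions, so the p-values below measure the spread between these libraries, part of which may be technical.

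NDRG proteins share a fold with hydrolytic enzymes but are thought to lack catalytic activity, and they act in differentiation, vesicle traffic and the stress response. NDRG1 is a long-known target of HIF and is repressed by Myc proteins. NDRG2 is abundant in normal liver and brain, the NDRG3 protein is itself hydroxylated and degraded when oxygen is present, and NDRG4 is best known from heart and brain. ANKRD37 is likewise a known HIF target.

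Reads assigned to genes numbered 2462623 to 4744982 per library in DMSO at 24 h, 2703897 to 8202125 with Molidustat at 24 h, 1499273 to 9179389 in DMSO at 48 h and 2312396 to 5122636 with Molidustat at 48 h. DMSO 48 h replicate 2 stood apart from the other 11 libraries. It was the shallowest, 50.4% of its listed reads fell on no feature against 17.1% to 25.6% in the others, and its scaling factor by the trimmed mean of M-values (TMM) was 0.629 against 1.01 to 1.08. Where a result rests on it, the value without it is given as well. Levels below are counts relative to library size (CPM) after TMM scaling, and they are compared within a gene and not between genes. Where several genes are ranked by level, summed or set in ratio, the values describe counts and not amounts of RNA. In such bulk libraries, a lower count from fewer expressing cells cannot be told apart from less RNA per cell.

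The hepatic label was borne out by markers of hepatocytes, all 10 of which passed the count filter, with albumin (ALB) between 1264 and 5157 CPM. Markers of other cells were sparse: the endothelial marker VWF was at 0 in every library, the leukocyte marker PTPRC in 10 of 12 and the fibroblast marker COL1A1 in 9 of 12. The lymphocyte markers CD3E and CD79A were also at 0 throughout. Of the 9 markers 3 passed the count filter. The endothelial marker PECAM1 was at 0 to 6.45 CPM. The collagen gene COL3A1 was at 0 in every DMSO 24 h library, at 0 to 0.728 CPM with Molidustat at 24 h, at 0 to 2.71 CPM in DMSO at 48 h and at 0.429 to 3.15 CPM with Molidustat at 48 h, and the fibroblast gene DCN was seen only in Molidustat 48 h replicates 1 and 2, at 3.37 and 2.57 CPM. The lysozyme gene LYZ had the most counts of the 9, at 42.9 to 231.7 CPM. LYZ made up most of the summed signal of that list, which was 160.2 to 231.7 CPM in DMSO and 148.0 to 169.6 CPM with Molidustat at 24 h, and 106.7 to 142.0 CPM in DMSO and 46.8 to 75.0 CPM with Molidustat at 48 h. The ranges of that sum overlapped between treatments at 24 h. Summed hepatocyte markers were higher with Molidustat, from 12810 to 15810 CPM in DMSO to 19180 to 23320 CPM with Molidustat at 24 h and from 9089 to 17250 CPM to 24760 to 29550 CPM at 48 h. The 9089 CPM was DMSO 48 h replicate 2, and the other DMSO libraries at 48 h were at 17250 and 17060 CPM. The part of either list in the results below was not tested.

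HIF binds a short core motif, and the letters ACGTG and GCGTG were searched on both strands of the RefSeq promoters (GRCh38.p14, 250 bases before to 50 bases after each start). Promoters were found for ANKRD37, NDRG2 and NDRG4, 3 of the 5 genes. For each of the 3 genes 1 stretch with a match is shown, and further matches are given in words below. Capitals mark the matched letters, 5′ to 3′ on the gene's strand.
ANKRD37: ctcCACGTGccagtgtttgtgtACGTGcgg
NDRG2: gtgaaaggggggGCGTGtttactgggggtc
NDRG4: gccaaaccCACGCgggCACGCccccgcggc
The ANKRD37 stretch lies at chr4:185396676-185396705 (+) and holds 3 matches, of which 2 overlap in the palindrome CACGTG because both strands read ACGTG there. The NDRG2 stretch, at chr14:21025163-21025192 (-), holds 1 match and is shared by 2 of the 5 NDRG2 promoters. Another NDRG2 promoter has 1 match elsewhere and the other two have 0. The NDRG4 stretch, at chr16:58463628-58463657 (+), carries 2 of the 4 matches in 1 of the 4 NDRG4 promoters, while the remaining promoters hold 0. Of all 35116 promoters, 48.4% held at least 1 match and 10.1% at least 3, so these letters are common and a match describes the sequence only.

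NDRG1 was the member that rose. Averaged over both times, its level was 5.14-fold higher in Molidustat-treated cells than in DMSO controls, a log2 difference of 2.36 (SE 0.41; adjusted p = 0.00768, edgeR's quasi-likelihood test, Benjamini-Hochberg adjustment over 14274 genes). The treated libraries exceeded the controls at both times, as they did for 2.2% of tested genes. A gene was called when its adjusted p was under 0.05 and its log2 difference beyond 1. In this averaged comparison 1.03% of tested genes were called, 0.96% higher and 0.0701% lower. NDRG1 was the only one of the 4 tested members among them. Without DMSO 48 h replicate 2 the averaged log2 difference of NDRG1 was 2.50 (SE 0.40, edgeR adjusted p = 0.00138).

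In DMSO at 24 h the 3 libraries held NDRG1 (ENSG00000104419) at 4.36, 0.385 and 5.16 CPM. In DMSO at 48 h they held 5.83, 12.8 and 7.54 CPM, where the 12.8 CPM rests on 12 reads in replicate 2, the library that stood apart. Controls were thus low throughout, with replicate 2 at 24 h resting on a single read and the 48 h controls all above the 24 h controls. With Molidustat the values were 14.3, 25.5 and 20 CPM at 24 h. At 48 h they reached 45.8, 32.2 and 34.9 CPM, the highest of the study. The group means were 3.30 ± 2.56 CPM in DMSO at 24 h, 8.72 ± 3.62 in DMSO at 48 h, 19.9 ± 5.58 with Molidustat at 24 h and 37.7 ± 7.22 with Molidustat at 48 h (SD, n = 3 each). The 4 groups followed each other in that order without any overlap. This order was read from the values of NDRG1, and 6 of the 14274 tested genes (0.042%) showed it: NDRG1, the galectin LGALS14, the aldolase ALDOC, the sterol regulator INSIG2, erythropoietin (EPO) and the miR-210 host gene MIR210HG.

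**Figure D1:**
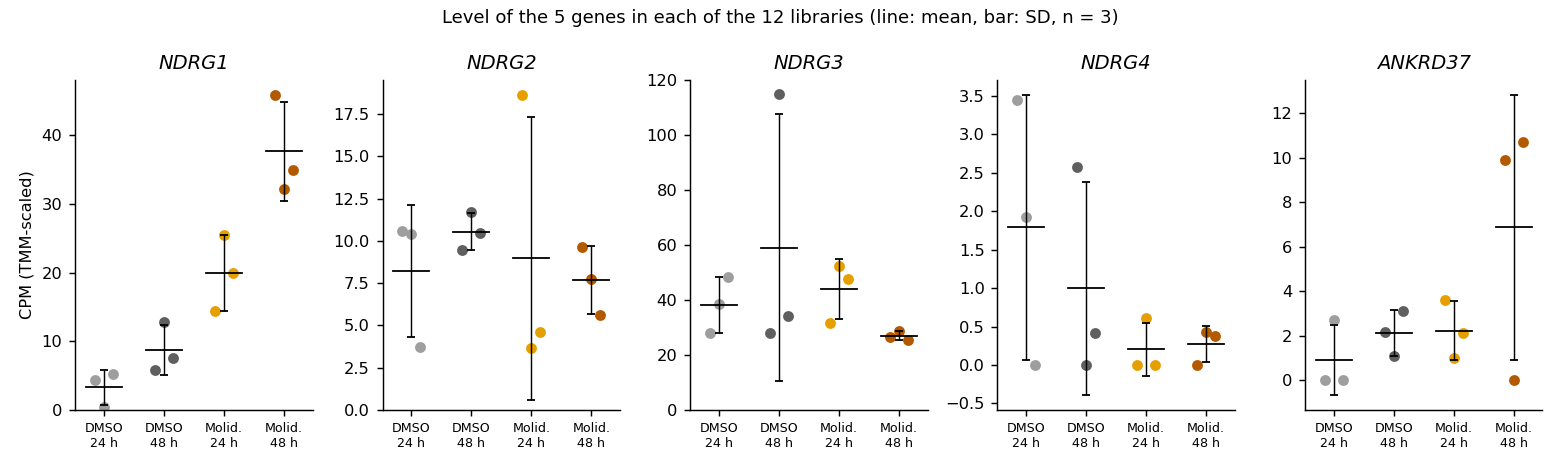
Level of each of the 5 genes in TMM-scaled CPM (vertical axis, a separate scale for each gene, starting at or below 0) in the 12 libraries; dots are libraries, horizontal lines group means and bars SD (n = 3). NDRG1 climbs from a mean of 3.30 CPM in DMSO at 24 h to 37.7 CPM with Molidustat at 48 h with no overlap between groups, while the groups of the other genes overlap.

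At a single time the same gene fell short of the threshold. The log2 difference was 2.52 at 24 h (SE 0.58; edgeR's quasi-likelihood test, unadjusted p = 0.000565, adjusted p = 0.135), a 5.74-fold higher level, and 2.20 at 48 h (SE 0.57; unadjusted p = 0.00153, adjusted p = 0.178), a 4.60-fold higher level. All 3 treated libraries lay above all 3 controls at each time, which held for 7.26% of tested genes at 24 h, 9.96% at 48 h and 2.2% at both. Only 0.231% of genes were called at 24 h and the same share at 48 h (0.21% higher, 0.021% lower), and none of the 4 tested members was among them, although 1 member at 24 h (NDRG1) and 2 at 48 h (NDRG1 and NDRG3) had an unadjusted p under 0.05, as had 5.25% of all tested genes at 24 h and 13.3% at 48 h. Without DMSO 48 h replicate 2, NDRG1 passed at 24 h (log2 difference 2.52, adjusted p = 0.0265) and not at 48 h (2.47, adjusted p = 0.0912). DESeq2 called it at both times, with log2 differences of 2.54 (adjusted p = 0.00255) and 2.18 (adjusted p = 0.00766), and voom only at 48 h (2.42, adjusted p = 0.00027).

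The response of NDRG1 was not shown to differ between the times. The 48 h response minus the 24 h response was -0.32 on the log2 scale (SE 0.78; edgeR, adjusted p = 0.964), in a comparison where 0 genes were called and 968 had an unadjusted p under 0.05. From 24 h to 48 h the level differed by 1.23 in DMSO (SE 0.59, adjusted p = 0.617), where 0.00701% of tested genes were called, and by 0.91 with Molidustat (SE 0.53, adjusted p = 0.9998). The later libraries were all above the earlier ones in both arms, as they were for 5.75% of tested genes in DMSO and 7.15% with Molidustat.

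NDRG1 lies on the minus strand of chromosome 8 (GRCh38, 133237175 to 133302022). The libraries were made from the 3′ ends of transcripts, so the last exon matters for what is counted. That exon has 1945 bases, of which 753 (38.7%), including the last 300 entirely, are also annotated to a long non-coding RNA on the same strand, ENSG00000289316. The count files do not list that RNA. Of the nearest protein-coding neighbours, CCN4 had 0 counts in the 12 libraries. ST3GAL1, a sialyltransferase gene, had an averaged log2 difference between treatments of 0.24 (SE 0.36, adjusted p = 0.860). Its later libraries were all above its earlier ones in both arms, at 5.01 to 10.3 CPM and then 29.96 to 34.1 CPM in DMSO, and at 2.51 to 17.96 CPM and then 28.1 to 32.2 CPM with Molidustat. These log2 differences from 24 h to 48 h, 2.173 in DMSO (SE 0.54, adjusted p = 0.541) and 1.42 with Molidustat (SE 0.52, adjusted p = 0.9998), were not called.

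The other family members gave no call. NDRG2 (ENSG00000165795; chr14, 21016763 to 21070872, minus strand), whose RNA is abundant in normal liver, stood at 10.6, 10.4 and 3.72 CPM in DMSO and at 18.6, 3.64 and 4.61 CPM with Molidustat at 24 h. At 48 h it stood at 9.49, 11.7 and 10.4 CPM in DMSO and at 9.66, 7.72 and 5.64 CPM with Molidustat. The groups overlapped at both times, and 1 treated library at 24 h held the highest value of all. Its log2 differences were 0.10 at 24 h (SE 0.66), -0.45 at 48 h (SE 0.66) and -0.17 averaged (SE 0.47, edgeR adjusted p = 0.931). ARHGEF40, an exchange factor gene that overlaps NDRG2 on the opposite strand and was counted 1404 times in all, had an averaged log2 difference of 0.47 (SE 0.26, adjusted p = 0.520).

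NDRG3 (ENSG00000101079; chr20, 36651766 to 36746090, minus strand) was counted 67 to 432 times per library. Its level was 28.0, 38.5 and 48.3 CPM in DMSO and 31.5, 52.4 and 47.5 CPM with Molidustat at 24 h. At 48 h it was 28.1, 115.0 and 34.1 CPM in DMSO and 26.5, 28.7 and 25.6 CPM with Molidustat. The treated libraries at 48 h were tightly grouped at the low end, and the 115.0 CPM came from the library that stood apart. The log2 difference was 0.20 at 24 h (SE 0.46) and -1.08 at 48 h (SE 0.47, edgeR adjusted p = 0.331), and without that library the 48 h value was -0.22 (adjusted p = 0.993). The difference between the 2 responses was -1.28 (SE 0.65, adjusted p = 0.781), and -0.44 without that library (SE 0.46, adjusted p = 0.9998).

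NDRG4 (ENSG00000103034; chr16, 58462846 to 58513628, plus strand) was barely present and did not pass the count filter. Its counts were 15, 5 and 0 in DMSO and 0, 5 and 0 with Molidustat at 24 h. They were 19, 0 and 4 in DMSO and 0, 1 and 2 with Molidustat at 48 h. Where a library had 0 counts, the limit of 3 counts corresponds to 0.577 to 3.19 CPM depending on depth, counting error only. Its level was not tested by edgeR. DESeq2, run without that filter, gave an averaged log2 difference of -2.50 (SE 1.49, adjusted p = 0.501).

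Because the 4 genes were counted in the same libraries, NDRG1 could be set against its relatives without any scaling. It took up 9.41%, 0.752% and 9.03% of the counts on the family in DMSO at 24 h, and 12.7%, 9.16% and 14.4% in DMSO at 48 h. With Molidustat it took up 22.2%, 31.02% and 27.7% at 24 h and 55.9%, 46.6% and 52.5% at 48 h. Every treated library was above every control. The exact 95% binomial interval of the lowest treated share was 16.4% to 29.0%, and that of the highest control share 11.4% to 17.7%, so these extremes overlapped in counting error. Over the same groups the mean share of NDRG3 was 73.4%, 69.5%, 59.5% and 37.4% in DMSO at 24 h and 48 h and with Molidustat at 24 h and 48 h.

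**Figure D2:**
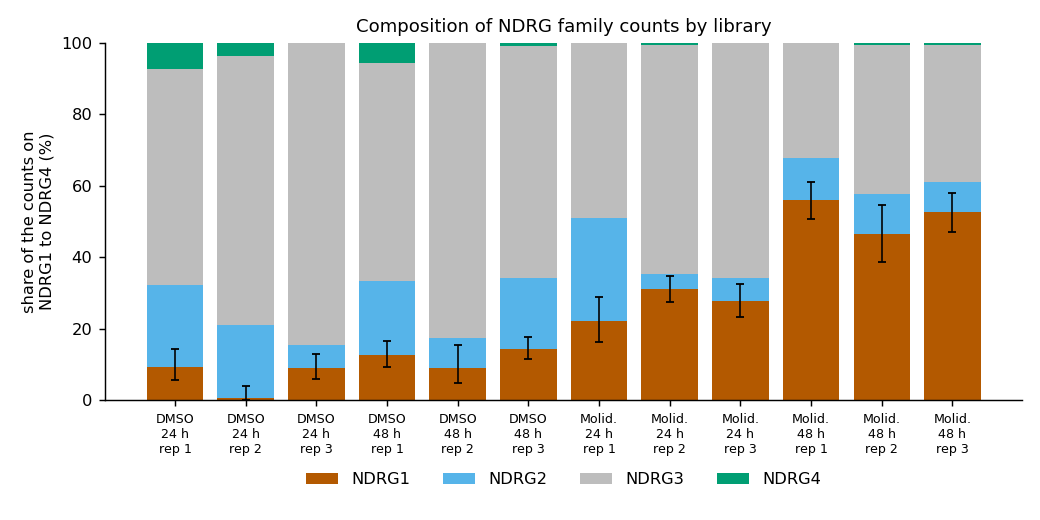
Share of the counts on NDRG1 to NDRG4 that falls on each gene (vertical axis, percent) in each of the 12 libraries; black bars are exact 95% binomial intervals of the NDRG1 share, counting error only. The NDRG1 part is at most 14.4% in the 6 DMSO libraries and between 22.2% and 55.9% in the 6 Molidustat libraries.

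The log2 ratio of NDRG1 to each relative within a library (0.5 added to each count) was compared between treatments by an exact two-sided permutation test within times, whose 400 arrangements allow no p below 0.005. The ratio to NDRG3 was 2.91 higher with Molidustat (exact permutation p = 0.005, adjusted over 4 ratios 0.0133), and no treated library overlapped a control at either time. The ratio to NDRG2 was 2.90 higher (exact permutation p = 0.01, adjusted 0.0133). It overlapped at 24 h, where DMSO libraries spanned -4.20 to 0.46 and treated ones -0.37 to 2.79. The ratio to NDRG4 was 4.32 higher (exact permutation p = 0.01, adjusted 0.0133) but overlapped at 24 h and rests on the few counts of NDRG4, and with 0.1 added in place of 0.5 its adjusted p was 0.0667. No 31-base word of the canonical transcripts was shared between the 5 genes.

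ANKRD37 (ENSG00000186352; chr4, 185396021 to 185400628, plus strand) was measured thinly. Its averaged log2 difference of 1.52 was not distinguishable from 0 at this depth (SE 1.02; edgeR adjusted p = 0.611). Its counts were 0, 7 and 0 in DMSO and 10, 8 and 11 with Molidustat at 24 h. At 48 h they were 16, 1 and 30 in DMSO and 44, 0 and 57 with Molidustat. At 24 h the treated counts were all above the control counts, but in CPM the groups overlapped, at 0 to 2.696 in DMSO and 0.971 to 3.58 with Molidustat. At 48 h the contrast lay between treated libraries: replicates 1 and 3 were at 9.89 and 10.7 CPM, the highest of the 12, while replicate 2 had no read. For replicate 2 the limit of 3 counts is 1.29 CPM, below the values of both other replicates.

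The log2 difference of ANKRD37 was 1.43 at 24 h (SE 1.50, edgeR adjusted p = 0.999) and 1.62 at 48 h (SE 1.39, adjusted p = 0.687). Group means were 0.899 ± 1.56 CPM in DMSO and 2.22 ± 1.31 with Molidustat at 24 h, and 2.11 ± 1.02 in DMSO and 6.87 ± 5.96 with Molidustat at 48 h (SD, n = 3 each). Leaving out single libraries moved the 24 h value between 0.76 and 6.47, the 48 h value between 1.15 and 2.15 and the averaged value between 1.17 and 4.03. Both 6.47 and 4.03 were obtained without DMSO 24 h replicate 2, the one control at that time with any read, so they are fitted against controls at 0 and depend on the model. ANKRD37 was called in none of these fits.

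The annotation describes the locus, while counts per gene do not show where in it these few reads lay. The last exon of ANKRD37 has 225 bases, and all of them lie within the last exon of UFSP2 on the opposite strand (chr4, 185399537 to 185425979), a gene for a protease that processes the ubiquitin-like modifier UFM1. The genes meet tail to tail, and 1092 bases are common to both. Whether the counting used strand is not given in the sources used here. It is therefore not known whether reads from the shared stretch were counted for one gene or set aside as ambiguous. Between 1.2% and 2.6% of listed reads per library were set aside as ambiguous, and whether reads from this stretch were among them was not tested. The gene in front, LRP2BP, starts 96 bases away on the opposite strand and had 20 counts in all.

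**Figure D3:**
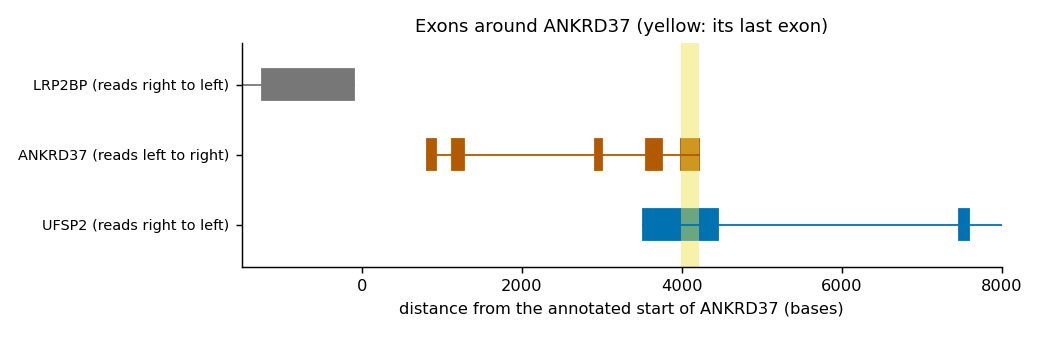
Exons of the canonical transcripts of LRP2BP, ANKRD37 and UFSP2 (boxes) along the distance from the annotated start of ANKRD37 (horizontal axis, bases). The 225 bases of the last ANKRD37 exon, shaded yellow, fall wholly within the last exon of UFSP2, which reads the opposite way.

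UFSP2 itself was counted 27, 10 and 14 times in DMSO and 10, 48 and 24 times with Molidustat at 24 h. At 48 h it was counted 68, 1 and 107 times in DMSO and 71, 56 and 33 times with Molidustat. Its averaged log2 difference was 0.56 (SE 0.49, edgeR adjusted p = 0.722), or 0.36 without DMSO 48 h replicate 2 (SE 0.43), and its groups overlapped at both times. With the counts of both genes added, the treated libraries at 48 h were at 25.8, 24.0 and 16.9 CPM and the controls at 11.4, 2.13 and 14.2 CPM. At 24 h the sum was 7.17, 6.80 and 6.73 CPM with Molidustat and 6.20, 6.55 and 2.89 CPM in DMSO. After TMM scaling the sum did not overlap between treatments at either time, by a narrow margin at 24 h. That pattern was held by 2.2% of tested genes taken singly, and no share was taken for sums of 2 genes. The sum describes counts and was not tested. Relative to total counts alone it overlapped at 24 h. There DMSO replicate 2 had 17 of 2462623 counts, a slightly larger share than the 35 of 5101950 in Molidustat replicate 3. The 2.13 CPM came from 2 reads in the library that stood apart. Molidustat 48 h replicate 2 had no read on ANKRD37, so its sum was the 56 counts of UFSP2 alone. The log2 ratio of ANKRD37 to UFSP2 differed by 0.78 between treatments (exact permutation p = 0.64, adjusted 0.64), with values of 2.51 at 24 h and -0.95 at 48 h. With Molidustat at 48 h the ratios were -0.68, -6.82 and 0.78, and the -6.82 of replicate 2 rests on its 0 count. Leaving out single libraries moved the difference of 0.78 between 0.023 and 1.92 (lowest adjusted exact permutation p = 0.095).

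NDRG1 and ANKRD37 both belong to a published 15-gene tumour hypoxia classifier, which places their values in a known programme. All 13 other genes of the classifier were tested and had positive log2 differences at both times. Averaged over times 10 of them were called higher and 0 lower, with a median log2 difference of 2.05 against -0.01 over all genes. At 24 h 6 were called (BNIP3, BNIP3L, LOX, P4HA1, PDK1 and SLC2A1) and at 48 h 5 (BNIP3, BNIP3L, FAM162A, LOX and P4HA2), with medians of 2.07 and 1.83. Of all tested genes 0.231% were called at 24 h, 0.231% at 48 h and 1.03% averaged, which is 33, 33 and 147 genes. Without DMSO 48 h replicate 2 the classifier counts were 10 at 24 h, 5 at 48 h and 10 averaged, and those of all genes 116, 53 and 209. With all libraries DESeq2 called 9, 8 and 10 of the 13 at 24 h, 48 h and averaged, and voom 9, 11 and 11. Both tools also called more of all genes than edgeR did. The summed classifier stood at 1281 to 1586 CPM in DMSO and 4640 to 5536 CPM with Molidustat at 24 h, and at 753.8 to 1612 CPM in DMSO and 4962 to 5167 CPM with Molidustat at 48 h. The 753.8 CPM was DMSO 48 h replicate 2, and the other DMSO libraries at 48 h were at 1537 and 1612 CPM.

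In order of the averaged log2 difference, NDRG1 was the fifth of the 15. It followed PFKFB3, a regulator of glycolysis (2.80, SE 0.46), BNIP3, a mitophagy receptor (2.75, SE 0.24), PDK1, a kinase that restrains pyruvate dehydrogenase (2.62, SE 0.46), and BNIP3L, a relative of BNIP3 (2.50, SE 0.28). KCTD11 had the same value as NDRG1 (2.36) with an SE of 0.96 and an adjusted p of 0.369 in edgeR's test. The gaps between these neighbours were within their standard errors. ANKRD37 was followed by ALDOA (1.48, SE 0.32, adjusted p = 0.0372), ADM (1.22, SE 0.40) and EGLN3 (0.84, SE 0.70). ALDOA thus passed with a smaller difference than that of ANKRD37, and ADM and EGLN3 did not pass in edgeR, while voom called ADM. The order depends on DMSO 48 h replicate 2. Without it PDK1 (3.03) came first, followed by BNIP3 (2.699) and PFKFB3 (2.64), NDRG1 (2.50) came before BNIP3L (2.34), EGLN3 (1.38) came before ALDOA (1.27) and ADM (0.997), and ADM had an adjusted p of 0.0358 with a difference just under the threshold.

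**Figure D4:**
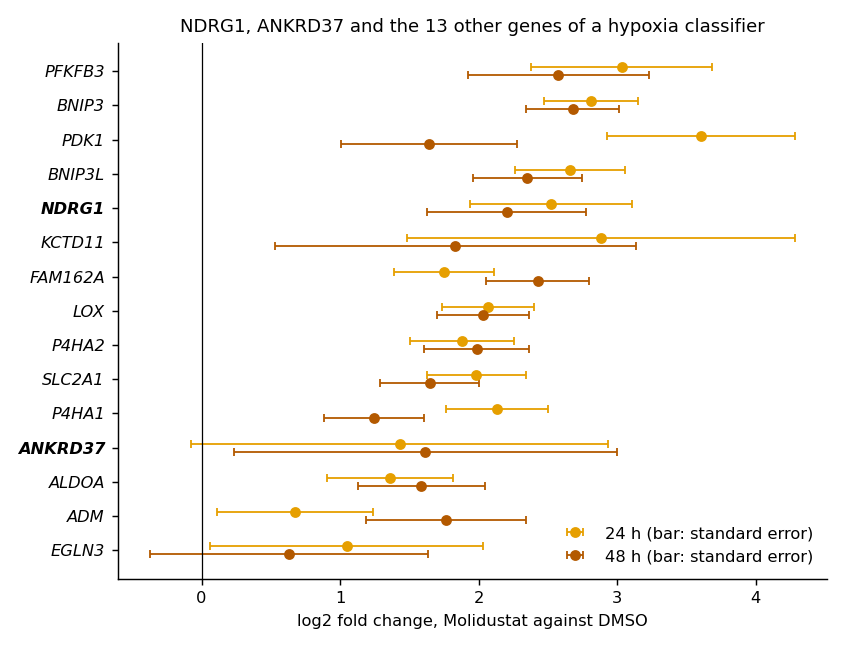
Log2 fold change of Molidustat against DMSO (horizontal axis) at 24 h and 48 h for NDRG1, ANKRD37 (bold) and the 13 other genes of the hypoxia classifier, ordered by the average of both times; bars are standard errors from edgeR. All points lie right of 0, and the bars of ANKRD37 (SE 1.50 and 1.39) are wider than those of NDRG1 (0.58 and 0.57).

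Among known regulators and partners of the NDRG proteins, EGLN1 was the gene that rose. Of 14 listed genes 13 were tested. In the averaged comparison, where 0.96% of all tested genes were called higher and 0.0701% lower, 1 of the 13 was called higher and 0 lower. The median log2 difference of the 13 was -0.13. At 24 h and 48 h 0 were called by edgeR, against 1 and 6 of 13 with an unadjusted p under 0.05 (5.25% and 13.3% of all tested genes). EGLN1 encodes the main oxygen-sensing HIF prolyl hydroxylase. It was at 23.2, 28.5 and 52.5 CPM in DMSO and 96.1, 106.3 and 103.3 CPM with Molidustat at 24 h. At 48 h it was at 48.7, 43.7 and 37.4 CPM in DMSO and 91.7, 85.8 and 85.9 CPM with Molidustat. No library overlapped between treatments at either time, as for 2.2% of tested genes in this direction, and the averaged log2 difference was 1.29 (SE 0.23; adjusted p = 0.00865). DESeq2, voom and the fit without DMSO 48 h replicate 2 also called it at 24 h.

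MYC and MYCN, whose proteins repress NDRG1, were both measured. MYC was at 36.3, 74.3 and 58.3 CPM in DMSO and 31.9, 64.9 and 28.8 CPM with Molidustat at 24 h, with overlap. At 48 h it was at 52.6, 52.2 and 51.7 CPM in DMSO and 15.9, 18.4 and 12.2 CPM with Molidustat. All treated libraries were below the controls at 48 h, as were those of 8.02% of tested genes. The log2 difference at 48 h was -1.75 (SE 0.39, edgeR adjusted p = 0.0982) and the averaged one -1.08 (SE 0.27, adjusted p = 0.0823), short of the threshold. DESeq2 and voom called MYC lower at 48 h and averaged, and edgeR without DMSO 48 h replicate 2 called it in the averaged comparison. MYCN was at 61.0 to 88.4 CPM in DMSO and 30.5 to 47.6 CPM with Molidustat at 48 h, also without overlap, with log2 differences of 0.09 at 24 h (SE 0.30) and -0.92 at 48 h (SE 0.31, edgeR unadjusted p = 0.00855, adjusted p = 0.227). The averaged differences of MYCN (-0.41, SE 0.21), VHL (-0.70, SE 0.40) and the vesicle protein gene RABAC1 (0.74, SE 0.32) were not called. VHL was at 164.0, 698.4 and 166.6 CPM in DMSO at 48 h, and without replicate 2 its averaged difference was -0.18 (SE 0.28). SGK1, the kinase that phosphorylates NDRG1, differed by -0.16 (SE 0.31), or -0.30 without DMSO 48 h replicate 2 (SE 0.27).

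For ANKRD37 the listed partners were the FEM1 substrate receptors and HIF1AN, the asparagine hydroxylase that also modifies ankyrin repeats. All 4 were tested and 0 were called by edgeR, DESeq2 or voom at either time or averaged, with 0 at 24 h and 2 at 48 h under an unadjusted p of 0.05, against 13.3% of all tested genes at 48 h. The averaged log2 differences were -1.21 for FEM1A (SE 0.49), -0.53 for FEM1B (SE 0.36), 0.82 for FEM1C (SE 0.52) and -0.32 for HIF1AN (SE 0.22). FEM1A was at 75.9, 732.5 and 75.3 CPM in DMSO at 48 h, the highest value being that of replicate 2, the library that stood apart. Without it the averaged differences were -0.24 for FEM1A (SE 0.26), -0.055 for FEM1B (SE 0.26), 0.67 for FEM1C (SE 0.48) and -0.30 for HIF1AN (SE 0.21), and 0 were called. The 2 genes under 0.05 at 48 h were FEM1A (-2.68, SE 0.73) and FEM1B (-1.31, SE 0.52). Without DMSO 48 h replicate 2 their 48 h differences were -0.75 (SE 0.38) and -0.38 (SE 0.39), so that count rests on this library.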

How the data were processed

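The 12 libraries were 3′ RNA-seq of Huh7 cells. The authors deposited raw read counts per gene (HTSeq 0.11.2 after cutadapt 1.9.1 and STAR 2.7.9a on GRCh38, per the submitters' processing notes), 60666 genes and 5 summary lines per file. Use of strand and of molecular identifiers is not given in the sources used here. Depth is the total on genes, and intervals cover counting error only.

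Names and exons came from GENCODE 44 (60437 genes matched). Of 28430 genes with a count, 14274 passed edgeR's expression filter (minimum count 10, minimum total 15), as did 4 of the 5 genes. Counts were fitted over all 12 libraries with edgeR 4.0.16 (quasi-likelihood test, TMM factors, R 4.3.3), a mean per group and Benjamini-Hochberg adjustment. The code was tested on simulated data. Single ratios used exact permutation tests (scipy 1.17.1), since 3 libraries against 3 cannot give p below 0.1 at one time. Limma-voom 3.58.1, DESeq2 1.42.0, total-count scaling, other filters, thinning, each time alone, a replicate block and leaving out each library were alternatives.

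The genes and lists were chosen with earlier results of these data known. Genes named were the 5 genes, up to 6 per list with the largest averaged difference, overlapping or nearest genes, and for NDRG1 and ANKRD37 the 5 genes with the highest correlation. SGK1 and ANKRD36 were named beyond this rule, after their values were seen, and 1 gene of a list is not reported here. Further lists held mitochondrial mRNAs (0.915% to 3.05% of counts, 0 of 13 called by edgeR or DESeq2, 1 with an unadjusted p under 0.05 in each comparison by treatment) and genes with ANKRD symbols.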

Additional observations from a re-analysis of the deposited data

How the results depend on the processing

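In the averaged comparison NDRG1 was called in every alternative that tested it, with log2 differences of 2.13 to 2.56 when single libraries were left out (adjusted p 0.00138 to 0.0272). Requiring at least 10 counts in every library removed NDRG1, which leaves 0 of the 5 genes called. At 24 h NDRG1 was also called by DESeq2 (2.54) and without a filter on low counts (2.55), and at 48 h by DESeq2 (2.18), voom (2.42) and without a filter (2.21), so 1 of the 5 genes was then called. Without single libraries its log2 difference was 2.06 to 2.93 at 24 h and 1.98 to 2.47 at 48 h. NDRG2 changed sign at 24 h under voom (-0.22), the replicate block (-0.018) and thinning to the smallest total (-0.24), as did NDRG3 under thinning (-0.050). Between the responses, NDRG2 gave 0.044 under thinning and ANKRD37 -1.83 under voom. The ratio of ANKRD37 to UFSP2 turned to -1.19 under thinning. The ratio of NDRG1 to NDRG4 was 4.87 with 0.1 added (adjusted exact permutation p = 0.0667). The cause of these changes was not tested.

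Leaving out single libraries, log2 differences ran for NDRG2 from -0.99 to 0.48 at 24 h and -0.72 to 0.0050 averaged, and for the difference between responses from -0.76 to 0.14 for NDRG1, -0.95 to 0.53 for NDRG2, -1.59 to -0.44 for NDRG3 and -4.87 to 0.83 for ANKRD37. Calls among the 5 genes ran from 0 to 1 at 24 h.

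Counts of all genes called at 24 h were 33, against 135 by DESeq2, 64 by voom, 57 with that time alone, 106 without a filter, 15 with at least 10 counts everywhere, and 20 to 116 without single libraries (20 without DMSO 24 h replicate 1, 21 without replicate 2, 116 without DMSO 48 h replicate 2). At 48 h they were 33, against 348, 278, 7, 764, 15 and 13 to 327 in that order (327 without DMSO 48 h replicate 1, 53 without replicate 2, 198 without replicate 3, and 17, 14 and 13 without the Molidustat 48 h libraries). Averaged, they were 147, against 286 by DESeq2, 314 by voom, 442 without a filter, 90 with at least 10 counts everywhere, 89 after thinning and 78 to 209 without single libraries. For the difference between responses they were 0, against 4 by DESeq2 and 321 without a filter. For time in DMSO they were 1, against 38 by DESeq2, 2 by voom, 3 with total counts, 400 without a filter, 0 with at least 10 counts everywhere, 0 after thinning and 1 to 2 without single libraries. For time with Molidustat they were 0, against 12, 1 and 4 by DESeq2, voom and no filter, and 0 to 4 without single libraries.

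Same-numbered libraries of different groups did not pair (correlations of deviations -0.09 to 0.14, with 5 of 12 libraries closest to their own number). With the replicate block NDRG1 was at 2.38 averaged (adjusted p = 0.0206), 2.54 at 24 h (adjusted p = 0.280) and 2.21 at 48 h (adjusted p = 0.322), and no call of the 5 genes changed. ANKRD37 and NDRG4 were counted at most 57 and 19 times per library, which limits the precision of their values.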

Other observations

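The 5 genes whose levels followed NDRG1 most closely over the 12 libraries, among 9329 genes of sufficient level, were STC2, ACSL3P1, MIR210HG, PDK1 and PFKFB4, with Pearson correlations of log2 CPM of 0.965, 0.935, 0.931, 0.929 and 0.927. The median over all genes compared was -0.03. After the group means were subtracted the values were 0.906, 0.780, 0.620, 0.784 and 0.785. These correlations were the highest of many and share library and depth. STC2, which encodes the secreted glycoprotein stanniocalcin 2, was at 5.05, 0.385 and 4.34 CPM in DMSO and 20.8, 19.8 and 19.4 CPM with Molidustat at 24 h. At 48 h it was at 4.88, 5.32 and 4.65 CPM in DMSO and 33.9, 29.2 and 35.9 CPM with Molidustat. In DMSO 24 h replicate 2 NDRG1 and STC2 had a single read each and PFKFB4 had 0. How far the correlations after subtraction rest on that library was not tested. The averaged log2 difference of STC2 was 2.65 (SE 0.39; edgeR adjusted p = 0.00241). Those of the glycolytic regulator PFKFB4 and the miR-210 host gene MIR210HG were 3.70 (SE 0.43) and 4.01 (SE 0.42), both called.

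The 5 genes closest to ANKRD37 among 9330 were ENSG00000260269, CAPZB, SNUPN, DPY19L4 and PGS1, with correlations of 0.883, 0.847, 0.839, 0.835 and 0.821. After the group means were subtracted the values were 0.854, 0.888, 0.789, 0.820 and 0.797, so they were no lower as a set than those of NDRG1. The averaged log2 differences of these genes were 0.34, 0.08, 0.20, 0.25 and 0.13, none of them called. NDRG1 and ANKRD37 correlated at 0.245 over the 12 libraries and at -0.47 after the group means were subtracted. With counts of 0 to 57 on ANKRD37 these values describe the libraries only.

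Of 112 other genes with ANKRD symbols 35 were tested and 0 were called by edgeR at 24 h, 48 h or averaged, with 1, 4 and 4 under an unadjusted p of 0.05, against 5.25%, 13.3% and 11.0% of all tested genes. DESeq2 called ANKRD36BP1 at 48 h, where its edgeR log2 difference was -3.56 with all libraries and -0.996 without DMSO 48 h replicate 2 (adjusted p = 0.878). Their median averaged log2 difference was 0.07, the lowest was -2.61 for ANKRD33B (SE 1.31) and the highest 0.95 for ANKRD36 (SE 0.47). The next protein-coding gene beyond ANKRD37, C4orf47, lies 25620 bases away on the same strand. Its counts were 1, 0 and 12 in DMSO and 14, 40 and 71 with Molidustat at 24 h. At 48 h they were 2, 0 and 18 in DMSO and 26, 10 and 92 with Molidustat. In CPM the treated libraries lay above the controls at both times, as for 2.2% of tested genes, and the averaged log2 difference of 3.14 (SE 0.81; edgeR adjusted p = 0.10) did not pass the threshold.

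Among the hepatocyte markers 2 of 10 were called higher in the averaged comparison (0.96% of all tested genes were), against 3 by DESeq2 and by voom, which added APOA1. The 2 were TF, which encodes transferrin, with a log2 difference of 1.39 (SE 0.30; edgeR adjusted p = 0.0337), and SERPINA1, which encodes the protease inhibitor alpha-1-antitrypsin, with 1.34 (SE 0.26; adjusted p = 0.0174). Of the 10 markers 8 had positive averaged differences. Those of HNF4A (-1.06, SE 0.57) and APOB (-0.20, SE 0.23) were negative and not called. Without DMSO 48 h replicate 2 these were -0.14 (SE 0.39) and -0.30 (SE 0.17). The averaged difference of LYZ was -0.74 (SE 0.21; adjusted p = 0.156), and at 48 h DESeq2 and voom called it lower.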
